A study of Danio rerio with 17 samples.

Results

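The brains compared here were taken 168 h, about a week, after zebrafish received the algal neurotoxin domoic acid (DA) or vehicle. The comparison uses 6 of the 17 arrays analysed, 3 from DA brains and 3 from control brains, chosen by treatment and time in the sample titles. It covers 15502 of the 15617 probe sets on the Affymetrix zebrafish array, all except the 115 control probe sets. Of these, 10795 carry a single gene symbol and stand for 8793 genes, each read from its brightest probe set.

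DA brains came from wild-type AB adults, about a year old, injected into the body cavity with 1.1 µg of DA per g of fish, a dose that produced brief behavioural signs. Control brains came from AB fish of the same age given the same volume of phosphate-buffered saline. Each array holds RNA from 3 to 4 pooled whole brains, so the spread between arrays is a spread between pools and not between single fish. DA and control brains at 24 h and 48 h enter only the shared estimate of spread and the comparison of times at the end. They give 6 arrays at 24 h and 5 at 48 h, where the controls were replicates 1 and 2 only.

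Domoic acid is a glutamate analogue made by diatoms that opens AMPA and kainate receptors. Sustained opening loads neurons with calcium and can kill them, and in mammals the hippocampus is known as a vulnerable region. Known later responses to such injury include glial activation, inflammation and altered excitability, which is why receptors, immediate early genes, glia and immune genes were listed here beside housekeeping functions.

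Levels are log2 values, so a difference of 1 is a 2-fold difference. The tissue label was checked first. The 22 neuronal identity genes averaged 10.94 to 11.24 on the DA arrays and 10.98 to 11.15 on the control arrays, whereas the 17 blank probe sets, which match no zebrafish gene, averaged 4.94 to 5.11 on the DA arrays and 5.10 to 5.18 on the control arrays. None of the neuronal genes lay at or below the blank median. Pairs of the 6 arrays correlated at 0.991 to 0.996 across probe sets, within and between groups, and none stood apart. One array outside the comparison, DA 24 h replicate 1, had a blank mean of 5.74 and a median correlation of 0.976 with the other arrays.

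No probe set differed between DA and control brains at 168 h at an adjusted p under 0.05 in limma, which is 0% of those tested. The lowest adjusted p was 0.999. At an unadjusted p under 0.05, limma gave 468 probe sets, or 3.02%, of which 188 (1.21%) were higher and 280 (1.81%) lower in DA. These counts depended on single arrays: the lower count was 140 without DA replicate 3, 186 without DA replicate 2 and 514 without DA replicate 1. Without DA 24 h replicate 1, which acts only through the shared spread, the counts were 333 higher and 566 lower. The adjusted count was 0 in each of these fits.

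The precision was enough to bound most measured differences within 2-fold. For 8727 of the 8793 genes (99.2%) the whole 95% interval of the DA minus control difference lay within 2-fold. In both groups 1347 genes (15.3%) were at or below the blank median, and for these the interval bounds only a level near the blanks. No gene was 2-fold or more higher in DA. The 5 genes 2-fold or more lower, namely pde6ha, pde6c, gngt1, rpe65a and rbp4l, belong to photoreceptors or to the retinoid cycle, and for pde6c and gngt1 the DA arrays were at the level of the blanks. That count rests on single arrays: it was 2 without control replicate 3 (pde6ha and rpe65a) and 11 without DA replicate 1, and it was 0 with the blank mean as a covariate. With p below 0.05 before adjustment there were 101 genes (1.15%) above the controls and 173 (1.97%) below them. For 331 genes (3.76%) all 3 DA arrays lay above all 3 control arrays, and for 612 genes (6.96%) all lay below, together 10.7%. These percentages are the background for every list that follows, but they varied with level. Among genes at or below the median level, 2.89% were higher and 9.96% lower without overlap. Among genes above it the shares were 4.64% and 3.96%.

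The excess of lower genes lay among dim genes. Of the genes at or below the median level, 65.1% were lower in DA, against 48.0% of the genes above it. The blank probe sets were lower in DA too, by a mean of 0.12. When quantile normalisation was repeated on the deposited values, the shares became 51.4% of dim genes and 48.8% of bright genes, and the split at an unadjusted p under 0.05 turned to 282 higher and 235 lower. Median centring gave 251 higher and 164 lower, and cyclic loess gave 292 higher and 223 lower.

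**Figure D1:**
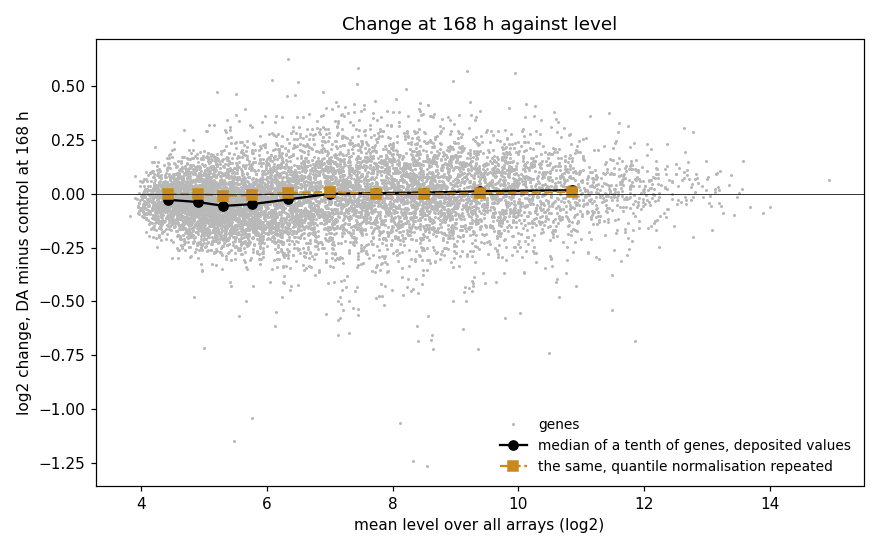
Difference of DA minus control at 168 h (log2, vertical axis) against mean level over all arrays (log2, horizontal axis) for 8793 genes. Black circles are medians of 10 equal bins of genes with deposited values and orange squares the same with quantile normalisation repeated: the black line dips to -0.06 in the third bin and ends at 0.02 in the brightest.

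The genes given first were chosen by the smallest p among genes whose arrays did not overlap, 12 per direction. Their lack of overlap, and largely their intervals away from 0, therefore follow from the choice. Those higher in DA included parts of membrane traffic, adhesion and RNA handling. The coat subunit gene sec24b, whose protein selects cargo for vesicles leaving the endoplasmic reticulum, was at 8.40, 8.22 and 8.30 in DA brains, against 7.95, 7.91 and 8.07 in control brains. The difference was 0.33 (95% interval 0.16 to 0.50, limma adjusted p = 0.999). By the choice of genes, every DA array lay above the highest control array. The dynein light chain gene dynll2b was at 11.07, 11.22 and 11.16 in DA brains, against 10.81, 10.77 and 10.79 in control brains, a difference of 0.36 (0.16 to 0.56). The control arrays were nearly equal. A second dynll2b probe set, dimmer, differed by 0.02.

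The neuronal adhesion gene cntn1b, a contactin of axons, had the largest difference among these 12 genes. It was at 9.85, 10.03 and 10.15 in DA brains, against 9.55, 9.48 and 9.32 in control brains, 1.47-fold higher (log2 0.56, 0.23 to 0.88). The groups did not overlap. The splicing regulator hnrnpl was at 7.22, 7.44 and 7.44 in DA brains and at 6.86, 7.04 and 6.78 in control brains, a difference of 0.47 (0.17 to 0.77). The RNA helicase gene ddx3xa differed by 0.28 (0.11 to 0.44) on its brightest probe set, whereas its other probe sets differed by -0.35 and -0.18. The gene therefore has no single direction on this array.

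The glial transcription factor gene sox9b was at 8.71, 8.24 and 8.53 in DA brains, against 7.95, 8.19 and 8.10 in control brains, a difference of 0.41 (0.14 to 0.68). DA replicate 2 came within 0.05 of a control array, and a dimmer sox9b probe set differed by -0.20. The adaptor gene nck2b, which links receptors to actin, differed by 0.32 on one probe set and -0.18 on a dimmer one. The stromal and pericyte gene cd248a differed by 0.36, the endosomal actin regulator washc5 by 0.38, the homeobox gene hmx3a by 0.30, the Cdk5 activator cdk5r2a by 0.30 and si:dkey-193c22.1 by 0.53. The largest differences among genes whose groups did not overlap were 0.63 for the histone deacetylase gene hdac9b and 0.59 for the RNA-binding gene rbm45, with intervals that reached down to 0.04 and 0.00. The SNARE-associated gene snapin and the nuclear matrix gene hnrnpub differed by 0.52 and 0.49, with intervals that included 0, and 2 dimmer hnrnpub probe sets differed by 0.06 and 0.04.

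**Figure D2:**
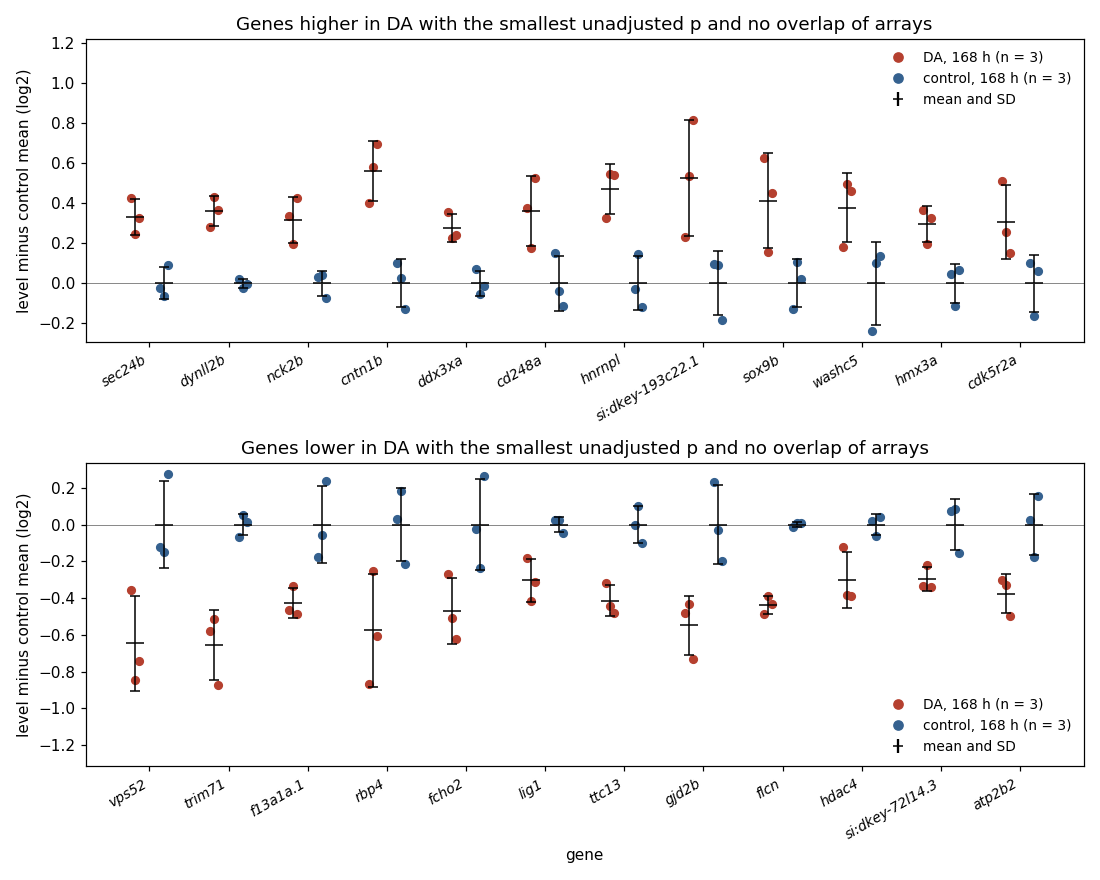
Level minus the control mean (log2) on each of the 3 DA arrays (red, left) and 3 control arrays (blue, right) at 168 h for 12 genes higher and 12 genes lower in DA, with mean and SD. By the choice of genes the groups do not overlap, and cntn1b among the higher genes and trim71 among the lower ones have mean differences of 0.56 and -0.65.

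Genes lower in DA, chosen in the same way, were led by vps52, a subunit of the complex that tethers endosomal vesicles to the Golgi. It was at 7.23, 6.74 and 6.84 in DA brains, against 7.46, 7.44 and 7.86 in control brains, 1.57-fold lower (log2 -0.65, -0.99 to -0.31, limma adjusted p = 0.999). A dimmer vps52 probe set differed by 0.17, in the other direction. The gene trim71, known from development as a ubiquitin ligase and RNA-binding repressor, was at 7.12, 7.19 and 6.83 in DA brains, against 7.64, 7.75 and 7.72 in control brains, also 1.57-fold lower (-1.0 to -0.31). Its control arrays lay within 0.11 of each other and no DA array came near them.

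The folliculin gene flcn, a regulator of nutrient signalling at lysosomes, was at 8.81, 8.91 and 8.86 in DA brains, against 9.29, 9.31 and 9.31 in control brains. Both groups were tight, and the difference was -0.44 (-0.72 to -0.15). The DNA ligase gene lig1, which joins replication fragments, was at 7.12, 6.88 and 6.98 in DA brains and at 7.32, 7.32 and 7.25 in control brains, a difference of -0.30. The neuronal gap junction gene gjd2b was at 5.95, 6.0 and 5.70 in DA brains, against 6.66, 6.40 and 6.23 in control brains, a difference of -0.55. The endocytosis gene fcho2 differed by -0.47, and by -0.15 on a dimmer probe set. The histone deacetylase gene hdac4 differed by -0.30, ttc13 by -0.41 and si:dkey-72l14.3 by -0.30, by the choice again without overlap of the arrays.

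Among genes with a single symbol, those of photoreceptors and of the retinoid cycle gave the largest differences at 168 h. Photoreceptors lie in the retina and in the pineal organ, and retinoid carriers and isomerases regenerate the light-sensing chromophore. Of 35 photoreceptor genes, 33 were lower in DA and 2 higher, with a median difference of -0.21 against -0.02 for all genes. For 16 of the 35 the DA arrays all lay below the control arrays. That is 45.7% of the list, against 6.96% of all genes and 9.96% of genes at or below the median level. This list and the others were chosen with earlier results of these data known, so such shares describe the lists and test nothing. For none of the 35 did the DA arrays all lie above. With p below 0.05 before adjustment, 1 of the 35 lay below the controls, where 1.97% of all genes did, and none passed the adjusted threshold. The list averaged 5.31 to 5.40 on the DA arrays and 5.57 to 5.77 on the control arrays, and 10 of the 35 genes were at or below the blank median. Fewer cells of a type and less RNA per cell cannot be told apart in pooled whole brains.

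The cone phosphodiesterase subunit gene pde6ha was at 7.49, 7.48 and 7.82 in DA brains, against 8.49, 9.01 and 9.07 in control brains. It was 2.4-fold lower with no overlap, but the interval from the spread over all 17 arrays, -2.79 to 0.26, included 0, and a dimmer pde6ha probe set differed by -0.51. The catalytic subunit gene pde6c was at 5.04, 5.06 and 5.08 in DA brains, against 5.73, 5.89 and 6.68 in control brains. The rod transducin gene gngt1 was at 5.08, 5.05 and 4.81 in DA brains, against 5.60, 5.31 and 7.47 in control brains. In DA brains both genes were at the level of the blanks, so no fold is given for them. Control replicate 3 was far above its group for gngt1 and was also highest for pde6c, and for the phosducin gene pdcb, which differed by -0.72. The green cone opsin gene opn1mw2 differed by -0.35 and the rod transducin gene gnat1 by -0.35, with a second gnat1 probe set at -0.51. For pdcb and opn1mw2 too the DA mean lay at or below the median of the blanks.

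In the retinoid group, 14 of 19 genes were lower. Without overlap 6 were lower (31.6%, against 6.96% of all genes and 9.96% of genes at or below the median level). The median was -0.14, and -0.10 with quantile normalisation repeated. The isomerase gene rpe65a was at 6.91, 7.42 and 6.30 in DA brains, against 8.07, 7.87 and 7.89 in control brains. It was 2.09-fold lower (log2 -1.06, -1.87 to -0.26, limma adjusted p = 0.999), and a dimmer probe set differed by -0.11. The retinol carrier gene rbp4 was the brightest of the group, at 9.25, 9.86 and 9.51 in DA brains and 10.15, 10.30 and 9.90 in control brains, a difference of -0.58 (-0.92 to -0.24). Its relative rbp4l was at 7.64, 7.42 and 7.31 in DA brains, against 8.35, 8.37 and 9.38 in control brains, with control replicate 3 again highest. The cellular retinol carrier gene rbp2a differed by -0.31.

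Other eye and pineal lists had smaller medians, and these too moved with the scaling. Of 14 lens genes 13 were lower, with a median of -0.08, but 9 were lower with quantile normalisation repeated (median -0.05), and the median was 0.01 with the blank mean as a covariate. Of 10 pineal melatonin genes 9 were lower, with a median of -0.09, and 7 were lower with quantile normalisation repeated (median -0.05). The pineal median was also -0.05 with the blank mean as a covariate. The pineal opsin gene exorh was at 6.47, 6.47 and 6.24 in DA brains, against 6.51, 6.56 and 7.10 in control brains, and aanat2, the enzyme that sets melatonin rhythm, overlapped between groups. With quantile normalisation repeated, the photoreceptor median was -0.16 with 30 of 35 genes lower, and it was -0.09 with the blank mean as a covariate. Leaving out any 1 of the 6 arrays gave photoreceptor medians of -0.23 to -0.14, and without control replicate 3 the median was -0.16 with 32 genes lower. The amount of retina or pineal tissue in each pool was not measured, and its part in these values was not tested.

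**Figure D3:**
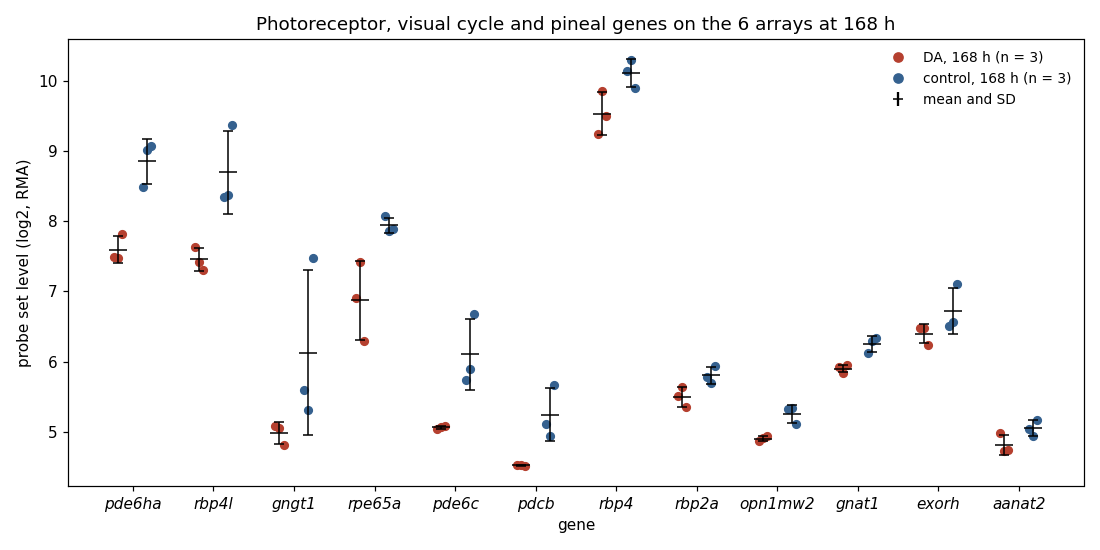
Levels (log2) of 12 photoreceptor, retinoid and pineal genes on the 3 DA arrays (red, left of each pair) and the 3 control arrays (blue, right) at 168 h, with mean and SD. The DA arrays of pde6c lie at 5.04 to 5.08, below all control arrays, and control replicate 3 of gngt1 stands at 7.47.

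No ionotropic glutamate receptor gene was called, which held for every probe set tested. The list is not limited to the AMPA and kainate receptors that DA opens and includes the NMDA receptor gene grin1a. The 5 ionotropic glutamate receptor genes had a median difference of 0.00, with 2 higher and 3 lower. The kainate receptor gene grik6 was at 8.28, 8.20 and 8.02 in DA brains, against 8.19, 7.77 and 8.15 in control brains, and its interval of -0.16 to 0.42 stayed within 2-fold. The AMPA receptor genes gria2a and gria2b differed by -0.24 and -0.15, with wide intervals of -0.97 to 0.49 and -0.74 to 0.44. The NMDA receptor gene grin1a differed by 0.07 (-0.23 to 0.38), and by -0.14 on a dimmer probe set. All 4 overlapped between groups.

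Genes that clear glutamate, answer activity or mark injury were likewise close to the controls. The glutamate transporter gene slc1a2b of astroglia was at 13.50, 13.19 and 13.11 in DA brains, against 13.60, 12.99 and 13.19 in control brains, a difference of 0.01 (-0.32 to 0.33). Glutamine synthetase, glula, differed by 0.13 and the intermediate filament gene gfap by 0.03, each with overlap. Of 12 glutamate transport and synthesis genes, 9 were higher, with a median of 0.07, but 6 were higher and 6 lower without DA replicate 1. Among 41 immediate early genes, 18 were higher and 23 lower with a median of -0.01, and fosab, npas4a and egr1 overlapped between groups with differences of 0.02, 0.19 and -0.13. Dimmer probe sets differed by 0.24, -0.10 and 0.00 for fosab and by 0.14 for egr1. The zinc finger gene egr2b was the exception within that list, at 6.13, 6.16 and 6.09 in DA brains, against 5.77, 5.67 and 5.95 in control brains, a difference of 0.33 (0.09 to 0.57). In the 15 genes of excitotoxicity and injury, 10 were higher and 5 lower, and none was without overlap, against 10.7% of all genes. That split turned to 5 higher and 10 lower without DA replicate 1, and to 7 higher and 8 lower without control replicate 2 and without DA replicate 3.

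Glial, myelin and immune lists had medians between -0.03 and 0.01. Of 26 radial glia and astroglia genes, 15 were higher, or 10 without DA replicate 1, and the filament gene vim differed by -0.32 with overlap. Without overlap 3 (11.5%) were higher and 1 (3.85%) lower, against 3.76% and 6.96% of all genes. In the 10 myelin genes, pmp22a was at 5.25, 5.20 and 5.17 in DA brains, against 5.41, 5.48 and 5.55 in control brains, a difference of -0.27, while mbpb of the myelin sheath differed by 0.15 with overlap. Of 39 microglia and leukocyte genes, 14 were higher and 25 lower, a split that turned to 22 higher and 17 lower with quantile normalisation repeated (median 0.01). The smallest p was that of f13a1a.1, a macrophage and plasma transglutaminase, which differed by -0.43 (-0.66 to -0.19). The actin bundler gene lcp1, a leukocyte marker, differed by 0.26 with overlap. Of 43 cytokine and innate immune genes, 7 (16.3%) were lower without overlap. The share was 6.96% of all genes and 9.96% of genes at or below the median level. The 7 included tgfb1a at 4.56, 4.45 and 4.36 in DA brains and 4.90, 4.61 and 4.65 in control brains. Every tgfb1a value lay below the blank median of 4.94. The chemokine gene ccl19a.1 differed by -0.41. The list was dim, with a median level of 5.96, 11 of 43 genes were at or below the blank median, and its median moved to 0.01 with quantile normalisation repeated.

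Calcium handling genes with the smallest p were mostly lower in DA. Of 81 genes, 10 (12.3%, against 6.96% of all genes) were lower without overlap, while the median was -0.03. With p below 0.05 before adjustment, 6 (7.41%, against 1.97% of all genes) had a lower level. With quantile normalisation repeated, 38 were higher and 43 lower, with a median of -0.01. At or below the blank median were 12 of the 81 genes. The plasma membrane calcium pump gene atp2b2 was at 11.40, 11.37 and 11.21 in DA brains, against 11.73, 11.53 and 11.86 in control brains, a difference of -0.38 (-0.64 to -0.12). Its relative atp2b1a was at 12.06, 11.32 and 11.18 in DA brains, against 12.12, 12.05 and 12.44 in control brains, a difference of -0.68, but 2 dimmer atp2b1a probe sets differed by -0.02 and 0.21. DA replicate 1 lay within the control range for atp2b1a, and DA replicates 2 and 3 lay below it. The kinase gene prkcea differed by -0.42 and the store-operated channel gene orai1b by -0.27. Of 49 ion channel genes, none was higher and 3 (6.12%) were lower without overlap, against 3.76% and 6.96% of all genes. The calcium channel gene cacna1ha differed by -0.47 with overlap.

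Several bright neuronal and chromatin genes, set together here after their values were seen, had the same order of arrays as atp2b1a. The postsynaptic scaffold gene dlgap4a was at 9.32, 8.33 and 7.87 in DA brains, against 8.92, 9.17 and 9.40 in control brains. The chromatin remodeller atrx was at 10.86, 9.85 and 9.43 in DA brains, against 10.61, 10.57 and 11.18 in control brains. The adhesion gene nrxn1a was at 11.22, 10.14 and 9.95 in DA brains, against 10.97, 10.81 and 10.71 in control brains. In each, DA replicate 1 was within or above the control arrays and DA replicates 2 and 3 were below them, so the differences of -0.66 for dlgap4a, -0.74 for atrx and -0.40 for nrxn1a rest on 2 arrays. The 2 dimmer dlgap4a probe sets differed by -0.23 and -0.27. The active zone gene rims2a showed that order too, with a difference of -0.37.

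The cytoskeletal and adhesion lists had medians of 0.05 and -0.02, against -0.02 for all genes. Of 41 adhesion genes, 26 were lower, and 1 (2.44%) was higher and 3 (7.32%) lower without overlap. Of 30 microtubule motor genes, 1 (3.33%) was higher and 4 (13.3%) lower without overlap. The shares of all genes were 3.76% and 6.96%. Of 45 axon guidance genes, 31 were lower with a median of -0.06, or 26 with quantile normalisation repeated (median -0.04). Of 26 synaptic vesicle genes 17 were higher with a median of 0.02. That split turned to 7 higher and 19 lower without DA replicate 1, and to 10 higher and 16 lower without control replicate 2. The calcium sensor gene syt5a was at 6.87, 6.83 and 6.58 in DA brains, against 7.09, 7.17 and 7.77 in control brains. Of 15 GABA and glycine genes, 7 were higher and 8 lower. There, the receptor gene gabbr1a differed by -0.28 without overlap and gabrb2a by -0.34 with overlap. The granin gene scg3, which sorts hormones into secretory granules, was at 10.19, 10.64 and 10.47 in DA brains, against 10.06, 9.98 and 10.02 in control brains, 1.33-fold higher. In the same neuropeptide list vipb differed by -0.26 on one probe set and 0.01 on a dimmer one, and 22 of 33 genes were lower, or 20 with quantile normalisation repeated. The 9 pituitary hormone genes had a median of -0.18, with 7 lower, and oxt, which encodes the fish oxytocin, overlapped between groups at 11.01, 10.70 and 9.99 in DA brains and 11.22, 11.14 and 10.56 in control brains. The pituitary median was -0.13 with quantile normalisation repeated, -0.04 with the blank mean as a covariate and -0.07 without DA replicate 3.

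**Figure D4:**
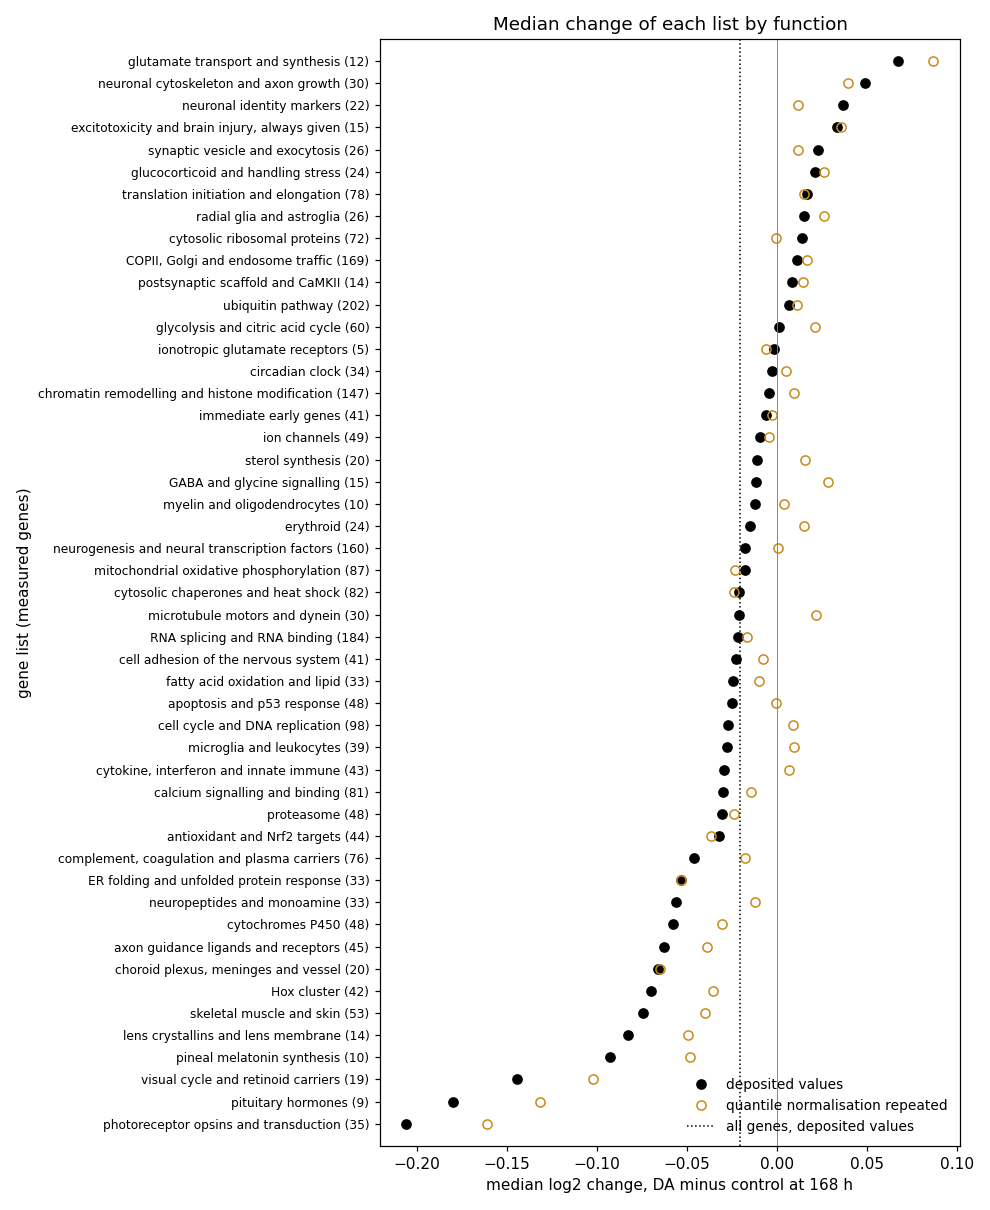
Median difference of DA minus control at 168 h (log2) for each of 49 gene lists, with the number of measured genes in brackets. Black points use the deposited values and open orange circles repeat quantile normalisation, and photoreceptor genes lie lowest at -0.21 and -0.16 while the dotted line marks all genes at -0.02.

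The largest lists had medians of -0.02 to 0.01. Without overlap, 3.76% of all genes were higher and 6.96% lower. Of 169 traffic genes, 10 were higher and 10 lower without overlap, 5.92% each way. Of 202 ubiquitin pathway genes, 13 were higher and 13 lower without overlap, and among them the SUMO protease gene senp3a differed by -0.32 and the ubiquitin ligase gene rnf144b by 0.34. Of 184 RNA splicing and binding genes, 15 (8.15%) were higher and 9 (4.89%) lower without overlap, and the kinase gene prpf4bb differed by 0.30. The 147 chromatin genes had a median of 0.00. The demethylase gene kdm7aa was at 7.26, 6.99 and 6.79 in DA brains, against 7.68, 7.30 and 7.78 in control brains, with a dimmer probe set at -0.09, and cbx1b, a heterochromatin protein, differed by -0.50. Of 160 neural transcription factor genes, 8 were higher and 9 lower without overlap. The forebrain and cerebellar factor zic2a was at 11.81, 11.46 and 11.43 in DA brains, against 11.31, 11.19 and 11.21 in control brains, with a dimmer probe set at 0.23, and irx1a differed by 0.29.

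Of 98 cell cycle and replication genes, 59 were lower and 9 (9.18%) were lower without overlap. Of all genes 56.5% were lower and 6.96% were lower without overlap. With quantile normalisation repeated the list turned to 55 higher and 43 lower, with a median of 0.01. Beside lig1, the condensin gene smc4 differed by -0.27 and the cyclin gene ccnb1, whose probe set may match more than 1 gene, by -0.23. The polymerase subunit gene pole3 lay on the other side, with a difference of 0.46. Of 48 apoptosis and p53 genes, 6 (12.5%, against 6.96% of all genes) were lower without overlap. With quantile normalisation repeated, 24 were higher and 24 lower. The caspase activator gene apaf1 was at 7.16, 6.88 and 6.90 in DA brains, against 7.23, 7.15 and 7.44 in control brains, a difference of -0.29, and a second probe set differed by -0.41. The cell cycle inhibitor gene cdkn1bb differed by -0.36 on one probe set and -0.02 on a dimmer one.

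Protein folding genes split in direction. The stress transcription factor gene xbp1 was at 10.88, 10.81 and 10.74 in DA brains, against 10.52, 10.42 and 10.45 in control brains, a difference of 0.35 (0.05 to 0.64). The sensor kinase gene eif2ak3, also known as PERK, was at 8.06, 8.34 and 8.33 in DA brains, against 8.61, 8.49 and 8.69 in control brains, a difference of -0.36 (-0.65 to -0.06). Its 2 dimmer probe sets differed by 0.02 and -0.23. The lumenal chaperone gene calr differed by -0.27 on one probe set and 0.04 on a dimmer one, and hspa5 by 0.10 with overlap. In the cytosol and mitochondria, 82 chaperone genes had a median of -0.02, and hspd1 of mitochondria differed by -0.23. The proteasome list of 48 genes had a median of -0.03, led by psma6a with a difference of -0.31.

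Energy metabolism and translation were near 0 as lists. The 87 oxidative phosphorylation genes had a median of -0.02, with 1 higher and 2 lower without overlap, and the 72 ribosomal protein genes a median of 0.01. In 33 fatty acid and lipid genes the median was -0.02, but 3 genes of mitochondrial fat oxidation had lower levels with p below 0.05 before adjustment. Of all genes 1.97% did. The electron carrier gene etfb was at 9.0, 9.19 and 9.16 in DA brains, against 9.28, 9.5 and 9.44 in control brains. The trifunctional enzyme gene hadhaa was at 6.98, 7.17 and 7.24 in DA brains, against 7.33, 7.56 and 7.50 in control brains, again without overlap. The isomerase gene eci1 differed by -0.31, with DA replicate 1 inside the control range. In glycolysis, pfkpa differed by 0.32 with overlap. Of 44 antioxidant genes, 3 (6.82%) were higher and 1 (2.27%) lower without overlap, against 3.76% and 6.96% of all genes. The lipid peroxidase gene gpx4a differed by 0.26 with overlap.

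Stress and clock lists each held genes on both sides. Of 24 glucocorticoid and handling stress genes, 3 (12.5%) were higher and 3 (12.5%) lower without overlap, against 3.76% and 6.96% of all genes. The cortisol-inactivating enzyme gene hsd11b2 was at 6.17, 6.13 and 6.65 in DA brains, against 6.13, 5.65 and 6.0 in control brains, and ddit4 differed by -0.25. Of 34 clock genes, 5 (14.7%, against 6.96% of all genes) were lower without overlap. The ubiquitin ligase gene fbxl3a, which targets cryptochromes, was at 9.26, 9.12 and 9.32 in DA brains, against 9.39, 9.47 and 10.05 in control brains, and cry3a differed by -0.22.

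The lists of muscle and skin, which lie around the brain, of Hox genes and of cytochromes P450 were mostly lower in DA and mostly dim. Of 53 muscle and skin genes 40 were lower with a median of -0.07, of 42 Hox genes 33 were lower with a median of -0.07, and of 48 cytochrome P450 genes 36 were lower with a median of -0.06. With quantile normalisation repeated these medians were -0.04, -0.04 and -0.03, or 0.00, 0.01 and -0.03 with the blank mean as a covariate. In these 3 lists 14, 16 and 17 genes were at or below the blank median. The 24 erythroid genes had a median of -0.02 and the 20 choroid plexus, meninges and vessel genes a median of -0.07. No gene of the vessel list was without overlap, against 10.7% of all genes. The P450 gene cyp2ad2 had the smallest p of these lists, with a difference of -0.24, whereas its 2 dimmer probe sets each differed by -0.01.

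Whether the effect of DA at 168 h differed from that at the earlier times was tested in the same limma fit. For 168 h against 24 h no probe set passed an adjusted p under 0.05 (lowest 0.544), and 1344 (8.67%) had an unadjusted p under 0.05. For 168 h against 48 h none passed either (lowest 1.0), and 481 (3.1%) had an unadjusted p under 0.05. DA minus control was 1.01 for rpe65a at 24 h, 0.90 at 48 h and -1.06 at 168 h. For rbp4l it was 1.21, -0.52 and -1.24 at those times. The photoreceptor list had a median of 0.18 at 24 h, -0.07 at 48 h and -0.21 at 168 h, and the 24 h value includes the array that stood apart.

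Among genes with the smallest p for these differences, cd248a was at -0.36, 0.02 and 0.36 (DA minus control at 24 h, 48 h and 168 h), and dynll2b at -0.25, -0.30 and 0.36. Against 48 h, where the controls were replicates 1 and 2 only, genes of mitochondrial fat oxidation recurred by the naming rule. At 48 h the fatty acid and lipid list had a median of 0.13 and the oxidative phosphorylation list 0.21, against 0.02 for all genes. The carnitine transferase gene cpt1ab was at -0.27, 0.85 and -0.26, hadhb of the trifunctional enzyme at 0.07, 0.60 and -0.16, and eci1 at -0.06, 0.44 and -0.31. The reverse order held for hsd11b2, at 0.19, -0.77 and 0.39. In contrast, the brightest probe set of vps52 was lower at all times, at -0.67, -0.31 and -0.65. That of atp2b1a was too, at -0.93, -0.36 and -0.68. The dimmer vps52 probe set was at -0.24, -0.18 and 0.17. Dimmer atp2b1a probe sets were at 0.06, -0.25 and -0.02, and at -0.05, 0.06 and 0.21, so neither gene was lower throughout on all its probe sets. Of the 331 genes higher without overlap at 168 h, 39.6% were above 0 at 24 h and 54.7% at 48 h, against 52.3% and 55.2% of all genes. Of the 612 lower without overlap, 65.5% were above 0 at 24 h and 50.2% at 48 h. Of these 612 genes, 438 were at or below the median level. The 24 h values include DA replicate 1 with its blank mean of 5.74, so the share of all genes is not a matched background for dim genes.

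**Figure D5:**
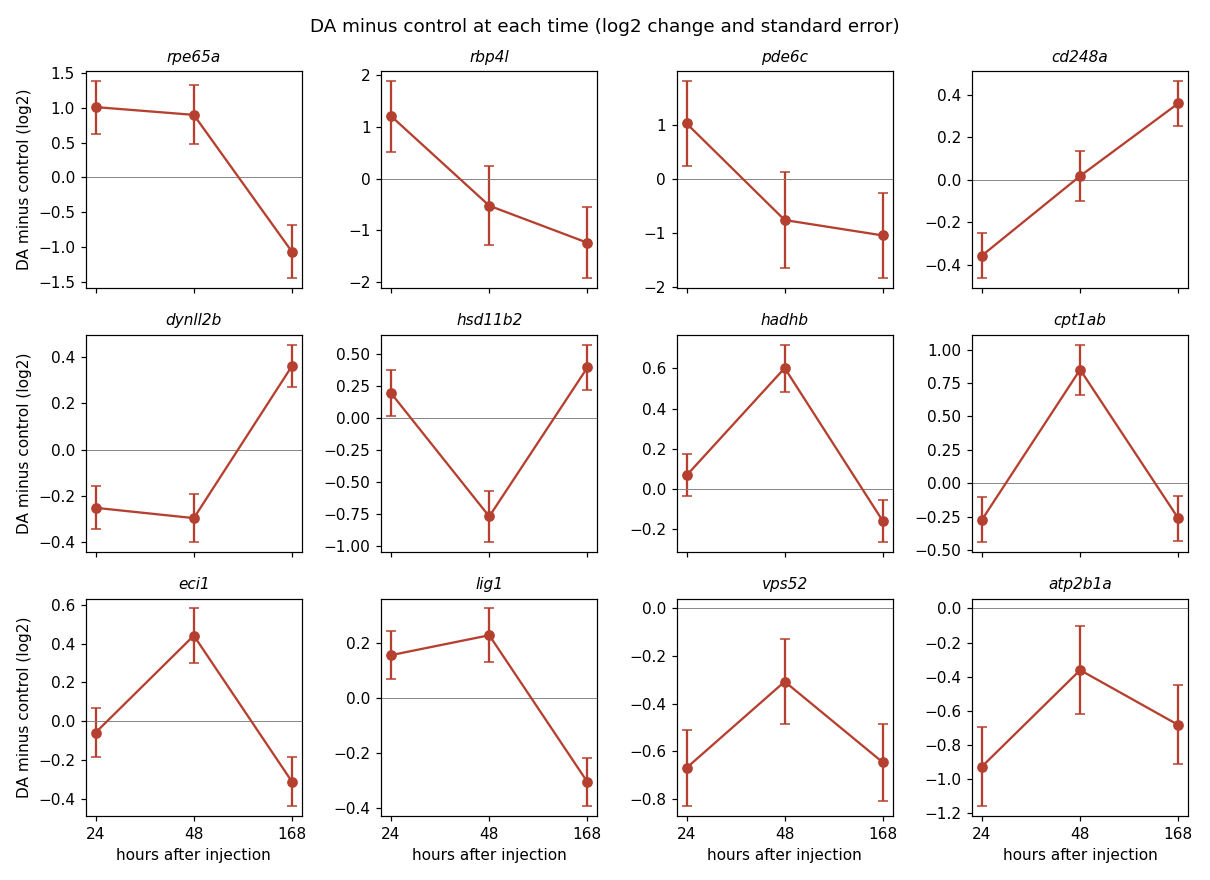
DA minus control (log2, vertical axis, scale set per gene) at 24 h, 48 h and 168 h after injection (evenly spaced on the horizontal axis) for 12 genes, with the standard error of the limma fit. rpe65a stands at 1.01, 0.90 and -1.06, cpt1ab at -0.27, 0.85 and -0.26, and vps52, on its brightest probe set, stays below 0 throughout.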

How the data were processed

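RNA from pooled brains was hybridised to Affymetrix zebrafish arrays. Values are the authors' deposited log2 levels per probe set, and oligo, RMA and limma are named in the submitters' processing notes, while the order of steps is not given in the sources used here. The arrays' number limits precision. No scan dates or batches were given. Probe sets were named from the platform annotation, updated through Entrez IDs for 10711 of 10795. limma 3.58.1 in R 4.3.3 fitted treatment and time groups on all 17 arrays (11 residual degrees of freedom), with Benjamini-Hochberg adjustment over 15502 probe sets. On simulated data with 200 changed probe sets, the procedure called 32.5% of those changed by 0.5 and 88.5% of those changed by 1 (log2). The simulated noise was independent between probe sets and arrays, without the shift of dim genes seen in the deposited values. The simulated shares therefore hold for that setting and may be too high for these arrays.

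Members and the 49 gene lists were chosen with earlier results of these data known, and mis-hit names were removed from lists. Named genes were drawn from the 12 per direction with the smallest p and the 6 with the largest difference among genes without overlap. They were also drawn from 4 per list with the smallest p, a fixed injury list, and 5 per direction for each difference between times. Not every gene under these rules is given here. Of the injury list, apoeb, bdnf, fabp7a and gap43 are left out. The comparison of times leaves out the genes so ranked whose effect at 168 h lay below that at 24 h. DA and control arrays of the same replicate number had correlated deviations of 0.18, 0.03 and -0.13, so the numbers were not taken to pair samples. Alternatives changed scaling, filtering, arrays, weights and covariates.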

Additional observations from a re-analysis of the deposited data

How the results depend on the processing

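The count of probe sets at an adjusted p under 0.05 at 168 h was 0 in every limma alternative run. At an adjusted p under 0.1 it was 0 as reported and 1 in 3 fits, whose lowest adjusted p was 0.052 without DA replicate 1, 0.057 with array weights and 0.055 with the GAPDH covariate. The count at an unadjusted p under 0.05 was less stable. Higher in DA, it was 188 as reported, 292 with cyclic loess, 116 above the median level, 440 with array weights, 323 with only the 6 arrays, 333 without DA 24 h replicate 1 and 157 to 223 without 1 of the 6 arrays. Lower in DA, it was 280 as reported, 164 with median centring, 135 above the median level, 911 with array weights, 480 with only the 6 arrays, 427 with the blank level as a covariate, 566 without DA 24 h replicate 1 and 140 to 514 without 1 of the 6 arrays. The photoreceptor median was -0.0882 with the blank covariate. It was -0.31 over only those photoreceptor genes whose probe sets lay above the median level, a smaller set that is not comparable with the whole list. The fits above the median level and with only the 6 arrays test fewer probe sets or arrays by construction, and for the others the cause was not tested.

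With the replicate number as a block, 0 probe sets were called and those at an unadjusted p under 0.05 were 164 higher and 213 lower. The replicate block changed no call.

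Of the 100 genes named, 8 changed sign in some alternative, all with overlapping groups, and none was called in any. Genes named for a small p or a lack of overlap keep their sign largely because of that choice, so their stability tests nothing. With array weights the difference was -0.0101 for grin1a, -0.0315 for gfap and -0.0503 for slc1a2b. For slc1a2b it was -0.0122 with cyclic loess and -0.00299 with the spike-in covariate. With the blank covariate it was -0.00452 for fosab and -0.00091 for grin1a. Without 1 array at a time the ranges were -0.0024 to 0.209 for grik6, -0.530 to 0.0265 for gria2a, -0.0380 to 0.178 for grin1a, -0.156 to 0.320 for fosab, -0.0250 to 0.134 for gfap, -0.0187 to 0.257 for glula, -0.0293 to 0.171 for hspa5 and -0.130 to 0.177 for slc1a2b.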

Other observations

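Among the 4707 probe sets with no single gene symbol, 213 (4.53%) were higher and 264 (5.61%) lower in DA at 168 h without overlap. One of the higher ones was at 5.65, 6.86 and 7.5 in DA brains, against 5.30, 4.93 and 5.10 in control brains. In control brains it was at the level of the blanks, so no fold is given for it. One of the lower ones was at 8.72, 8.34 and 8.56 in DA brains, against 9.37, 9.11 and 9.44 in control brains, a difference of -0.77 with the lowest unadjusted limma p of all probe sets (7.3e-05). Neither passed the adjusted threshold, and no gene is named for them here.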
